A study of Mus musculus with 8 samples.

Results

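Interferon-stimulated genes (ISGs) are switched on in most cell types when type I interferon binds its receptor. Their levels were measured by bulk RNA sequencing in the stromal vascular fraction (SVF), the non-adipocyte cells of fat, from gonadal white adipose tissue (WAT). A fixed set of 35 ISGs and their regulators was looked up by gene name, and all 35 were found among the 54532 genes counted. All 35 also passed the filter on low counts, so every member was tested. The mice were male C57BL/6J, 6 weeks old when a high-fat diet (HFD) with 60% of calories from fat was begun, by the description given with the data (the study's methods give other ages). After 12 weeks they were returned to normal chow with 16% of calories from fat, which is the diet intervention model, and injections of antibody were started at the same time. One group of 4 mice (numbers 1, 2, 6 and 9) received an isotype control Ab of class IgG1k, and the other group of 4 (numbers 5, 7, 8 and 10) received the anti-BAFF Ab Sandy-2, which neutralizes B cell-activating factor. Both antibodies were given at 2 mg/kg every 2 weeks for 6 weeks, and the tissue was collected at week 18. Both groups thus shared the HFD and the return to chow, and no lean or uninjected mice are part of the comparison. One fat pad was taken from each mouse, and each library is 1 mouse.

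Type I interferons are secreted proteins of the alpha and beta families that signal through the IFNAR1 and IFNAR2 receptor chains and the kinases JAK1 and TYK2. These kinases pass the signal to transcription factors, STAT2 and IRF9 among them, that bind a short DNA motif, the interferon-stimulated response element (ISRE), in front of the target genes. In adipose tissue such genes can be expressed by macrophages, endothelial cells and progenitors alike, and their products block viral RNA, tag proteins with ISG15 or amplify the response. Interferon gamma uses its own receptor and a related route, and part of the targets are shared.

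The ISRE can be read directly from the sequence in front of several members. A search for GAAANNGAAA on either strand (TTTCNNTTTC on the other), with overlapping matches counted, was run over RefSeq windows of GRCm38.p6 that reach from 250 bases before to 50 bases after each start. These letters were in 3.44% of all 32851 windows, and in at least 1 window of 3.99% of the 27025 genes that have one. Of the 35 members 26 had a window, and 14 of the 26, or 53.8%, held the letters in at least 1. Usp18, Oas2, Parp14, Ifi27, Zbp1, Dhx58, Mx2, Mx1 and Rtp4 had no window. In Ifih1, Ddx58 and Eif2ak2 the only match began after the start, by 32, 2 and 18 bases. The share was not particular to the members. It was 56.2% of 16 interferon gamma targets, 55% of 20 interferon genes and 47.9% of 48 other type I interferon targets with a window. The stretches of 8 members are printed to show how the letters occur: as single, overlapping or paired matches, and in a pair of gene copies. Each reads 5′ to 3′ on the strand of its gene, with the bases covered by a match in capitals.
Isg15 (chr4:156200850-156200921, minus strand, first match 78 bases before the start): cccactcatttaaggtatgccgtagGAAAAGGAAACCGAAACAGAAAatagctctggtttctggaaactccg
Ifit1 (chr19:34640760-34640838, plus strand, first match 104 bases before the start): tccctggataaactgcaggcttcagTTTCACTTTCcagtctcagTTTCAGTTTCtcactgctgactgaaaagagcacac
Ifit3 (chr19:34583348-34583441, plus strand, first match 156 bases before the start): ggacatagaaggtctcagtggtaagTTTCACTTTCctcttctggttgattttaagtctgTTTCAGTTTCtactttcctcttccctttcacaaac
Ifit3b (chr19:34607744-34607837, plus strand, first match 188 bases before the start): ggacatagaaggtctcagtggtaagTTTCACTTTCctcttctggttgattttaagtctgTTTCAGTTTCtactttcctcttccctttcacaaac
Rsad2 (chr12:26456538-26456597, minus strand, first match 120 bases before the start): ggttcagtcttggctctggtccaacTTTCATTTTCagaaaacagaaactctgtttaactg
Oas1a (chr5:120907526-120907570, minus strand, first match 20 bases before the start): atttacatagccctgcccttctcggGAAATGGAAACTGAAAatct
Bst2 (chr8:71537562-71537627, minus strand, first match 130 bases before the start): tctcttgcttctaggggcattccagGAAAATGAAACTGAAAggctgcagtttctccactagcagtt
Cxcl10 (chr5:92349068-92349127, minus strand, first match 213 bases before the start): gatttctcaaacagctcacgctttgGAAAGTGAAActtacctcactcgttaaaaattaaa
In Isg15 and in Bst2 and Oas1a the matches overlap, so the repeated GAAA blocks run together in 1 capital stretch. Ifit1 and Ifit3 each carry a pair of separate matches on the other strand, and Ifit3 and its copy Ifit3b share all 94 printed bases. Over the 218 upstream bases that can be aligned without gaps from the first match, the 2 copies are 86.2% identical, and the matches lie 32 bases farther from the annotated start in Ifit3b. No letters of this kind were in the windows of Irf7, Irf9, Ifit2, Oasl1, Oasl2, Cmpk2, Xaf1, Herc6, Isg20, Ifi35, Ifi44 and Ifi47, which says only that the windows lack this exact spelling. The 35 genes lie on 14 chromosomes (mm10), and the families sit together. The 4 Ifit genes lie within 99.3 kb on chromosome 19 (34550694 to 34650009). Oas1a, Oas2 and Oas3 span 177 kb on chromosome 5, Mx1 and Mx2 span 114 kb on chromosome 16, and Rsad2 and Cmpk2 are separated by 12751 bases on chromosome 12.

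Before the ISG values, some features of the libraries are needed. Total counts per mouse were between 13562340 and 18548024. The library of control Ab mouse 1 stood apart: the chi-square per degree of freedom against the other control Ab mice was 54.3, 64.7 and 70.2, against 7.32 to 23 among those 3. It also had the lowest mean log2 CPM (log2 of the counts scaled to a common library total) of adipocyte progenitor markers at 8.39, against 8.65 to 9.06 in the other 7 mice, and the highest of T cell markers at 2.76, against 1.57 to 2.25. Macrophage markers were at 8.25 to 8.65 in all mice and adipocyte markers at 2.66 to 3.55, so markers of stromal cells and macrophages were abundant and those of adipocytes low. The epididymis is the organ that adjoins this fat pad. The score of its 4 tested markers, of 10 listed, was highest in control Ab mouse 2 and anti-BAFF Ab mouse 7 (7.79 and 7.82). It lay between 0.93 and 4.55 in the others. Adam7 and Lcn5 were highest in mice 2 and 7. Crisp1 was at 741 and 997 CPM there, but also at 589 CPM in control Ab mouse 6 and 522 CPM in anti-BAFF Ab mouse 5. Spink10 was highest in mouse 5 (36.5 CPM). Leaving out mice 2 and 7 thus does not remove all of this signal. Markers of B cells, which need BAFF, scored 2.36 to 2.58 in the control Ab mice and 0.64 to 1.75 in the anti-BAFF Ab mice. In bulk RNA a lower level can come from fewer cells of a type or from less RNA per cell, and the 2 cannot be told apart.

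Per length of gene, the ISGs were present at low to moderate levels. In FPKM (counts per mapped total and per kilobase of gene), computed from the counts and gene lengths, 15 of the 35 members had a mean of at least 5 over the 8 mice and 4 were under 1. The highest level was that of Bst2 at 64.5 FPKM, which encodes tetherin, a membrane protein that holds budding virions on the cell. Ifi27 followed at 51.3, and a wide gap separated these 2 from Isg15 at 17.4, Cxcl10 at 12.8, Isg20 at 11.8 and Ifi35 at 10.7. The ranges over mice of Isg15 (11 to 26.8 FPKM), Cxcl10 (8.73 to 18.7) and Isg20 (5.04 to 24.7) overlapped, so their order is not fixed beyond the spread. The order between genes also depends on the lengths used. That of Cxcl10 (2252 bases) is its whole span from 92346638 to 92348889, and that of Isg15 (756 bases) is only part of its span. The lowest members were Ifi44 at 0.309, Oas3 at 0.663, Ifit3b at 0.849 and Herc6 at 0.854 FPKM.

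**Figure D1:**
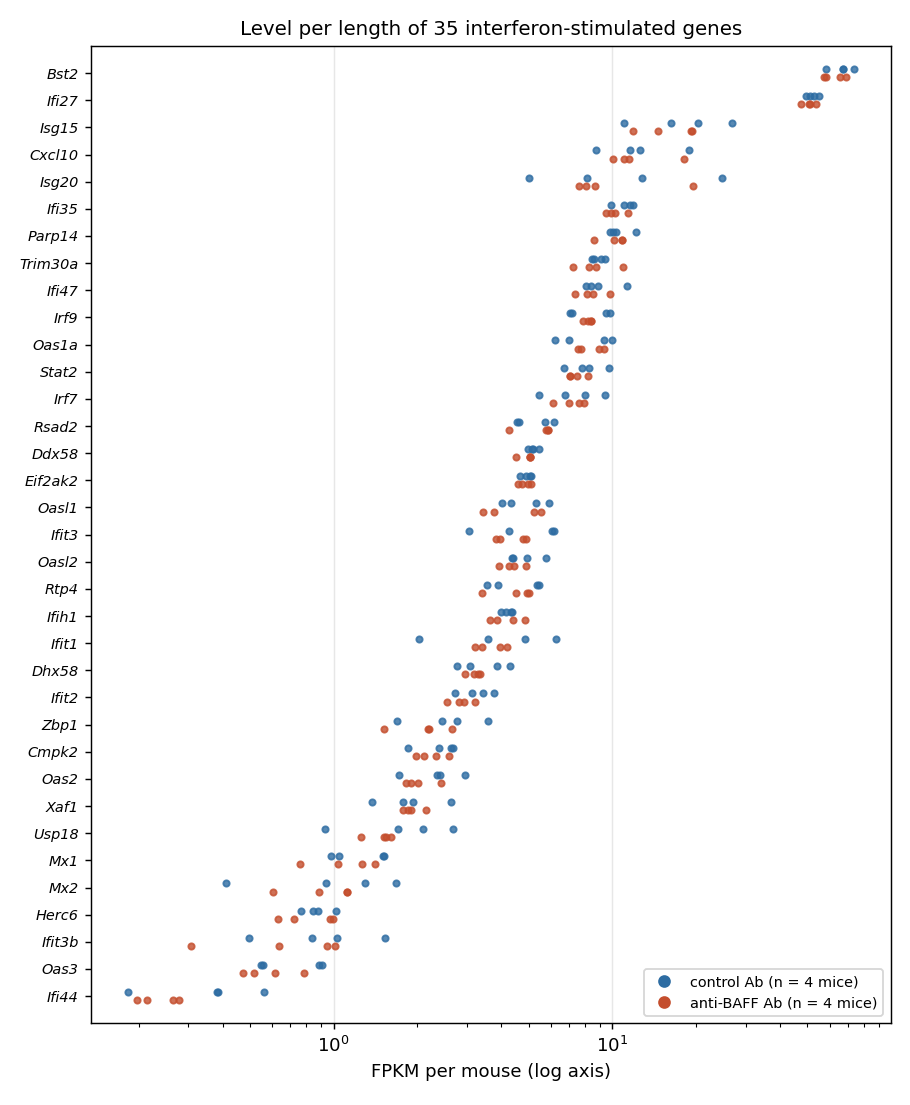
FPKM of each of the 35 members in every mouse (log axis), ordered by the mean, with control Ab mice in blue and anti-BAFF Ab mice in red (4 each). Bst2 (mean 64.5) and Ifi27 (51.3) lie apart from all others, Ifi44 (0.309) is lowest, and the red and blue points overlap for every member.

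The first question was whether BAFF neutralization moved these genes. By the quasi-likelihood test of edgeR no member was called after adjustment (0 of 35 at the 0.05 threshold), where 9 of the 15963 genes tested, or 0.0564%, were called. No member had an unadjusted p under 0.05, against a background of 1.90%, made up of 1.24% lower and 0.664% higher. DESeq2 called no member at an adjusted p of 0.05 either, and none at an unadjusted p under 0.05. The backgrounds were 0.219% and 1.34% of 30626 genes, a wider set that was not filtered in the same way. Among the 15963 genes, 53 and 269 were under these thresholds in DESeq2. The 2 groups overlapped in CPM for all 35 genes; over all genes tested, 0.952% were lower and 0.526% higher in the anti-BAFF Ab mice without overlap. The log2 fold change of anti-BAFF Ab over control Ab was below 0 for 33 of the 35 members, against 48.5% of all genes tested. The differences were small. Their median was -0.11, against 0.00 for all genes, and they ran from -0.65 to 0.05. This lean to one side changed with the mice kept. Without control Ab mouse 6, 24 members were below 0, against 50.8% of all genes. Without control Ab mouse 1, 34 were below 0, against 53.0%. Without control Ab mouse 2 and anti-BAFF Ab mouse 7, left out for the highest epididymis scores, 21 were below 0, against 54.3%. The median was then -0.04. Control Ab mice 2 and 6 were high over the members and mouse 7 low, so leaving them out works against the lean by construction.

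**Figure D2:**
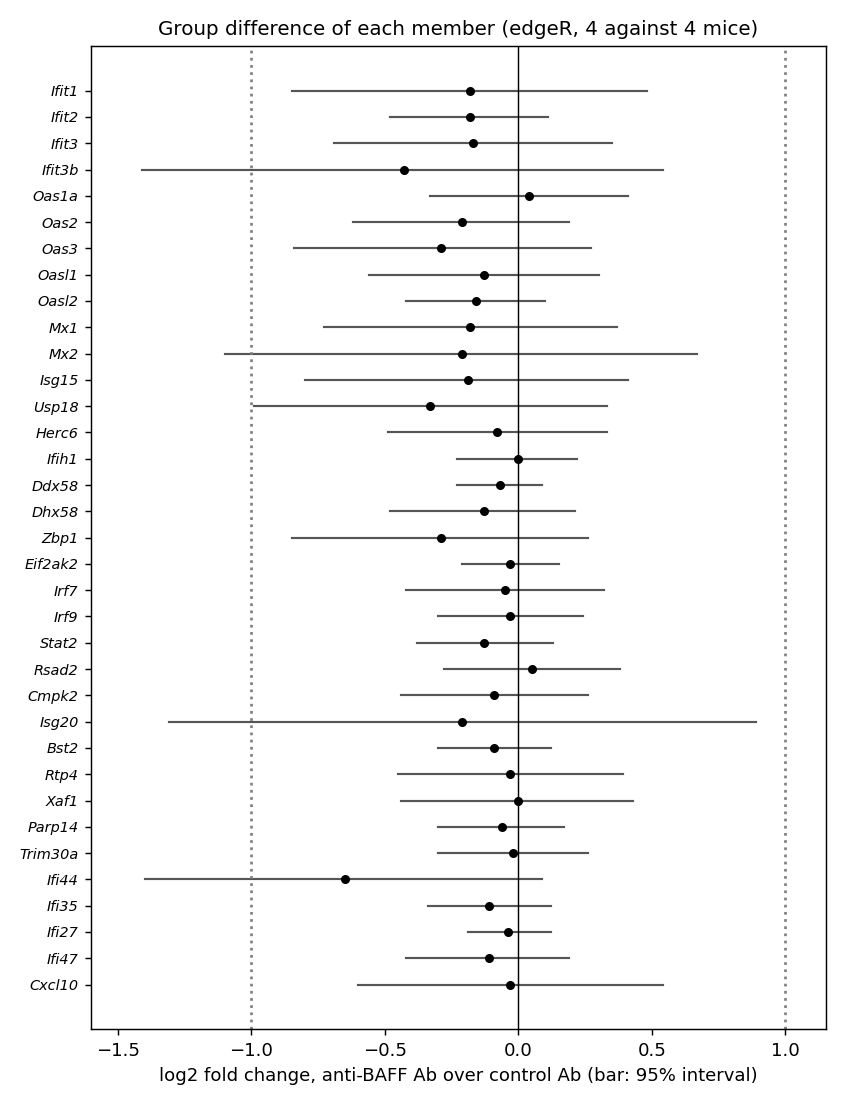
Log2 fold change of anti-BAFF Ab over control Ab for each member (point) with its 95% interval (bar), from edgeR with 4 against 4 mice, in the order of the roles. All 35 intervals include 0, 33 points lie below it, and dotted lines mark a 2-fold difference.

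The range of differences that the data allow varied by gene. The 95% interval stayed within a 2-fold change in either direction for 31 members and within 1.5-fold for 22. For Ddx58 (the RNA sensor RIG-I) it ran from -0.23 to 0.09, and for Ifi27 from -0.19 to 0.12. For Ifit3b, Ifi44, Isg20 and Mx2 it reached beyond 2-fold on the lower side, so a 2-fold fall was within the interval.

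The mean log2 CPM over the 35 members summarises each mouse in 1 score. It was 3.68, 4.14, 4.09 and 3.79 in control Ab mice 1, 2, 6 and 9. It was 3.90, 3.65, 3.87 and 3.82 in anti-BAFF Ab mice 5, 7, 8 and 10. Anti-BAFF Ab mice 5, 8 and 10 lay within the control range, and mouse 7 lay just below it. The means were 3.93 ± 0.22 and 3.81 ± 0.11 (SD, n = 4 each), a difference of -0.11, smaller than the SD of the control Ab mice. With 1 mouse left out the difference was -0.20 to -0.04. Without control Ab mouse 2 and anti-BAFF Ab mouse 7, the mice with the highest epididymis scores, it was 0.01. These mice also held the highest control and the lowest treated score, so leaving both out raises the difference by construction.

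The IFIT proteins bind foreign RNA that lacks the cap marks of the host. Ifit1 was at 5.4, 12.9, 16.7 and 9.54 CPM in control Ab mice 1, 2, 6 and 9 and at 11.1, 8.56, 10.5 and 9.05 CPM in anti-BAFF Ab mice 5, 7, 8 and 10. The control Ab mice held both the highest and the lowest value, and the treated mice lay between them. The log2 fold change was -0.18 (95% interval -0.85 to 0.48), and that of Ifit2 was -0.18 and of Ifit3 -0.17. Ifit3b was the lowest of the 4, at 0.992, 3.07, 2.05 and 1.67 CPM in the control Ab mice and 2.02, 0.619, 1.89 and 1.27 CPM in the anti-BAFF Ab mice. Its log2 fold change of -0.43 had the interval -1.41 to 0.54, with the low value in anti-BAFF Ab mouse 7. Reads may be exchanged between the gene copies Ifit3 and Ifit3b, whose transcripts were not compared, so the split between the 2 is uncertain.

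The OAS enzymes make a short RNA-like messenger that activates RNase L, and the OAS-like genes Oasl1 and Oasl2 are their relatives. Oas1a was 1 of only 2 members above 0, with 18.7, 17.6, 13.2 and 11.7 CPM in the control Ab mice and 16.8, 14.2, 17.6 and 14.5 CPM in the anti-BAFF Ab mice. The groups overlapped fully, with a log2 fold change of 0.04 (-0.33 to 0.41). The other 4 lay between -0.29 (Oas3) and -0.13 (Oasl1). The MX GTPases trap viral nucleocapsids, although laboratory strains such as C57BL/6 carry defective Mx alleles, and Mx2 is annotated in the deposited table as a polymorphic pseudogene. Mx1 and Mx2 transcripts were counted in every mouse, with log2 fold changes of -0.18 and -0.21.

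Isg15 encodes a ubiquitin-like tag, Usp18 the protease that removes it and also restrains the receptor, and Herc6 the ligase that attaches it. Isg15 was at 8.31, 15.3, 20.3 and 12.3 CPM in the control Ab mice and at 11, 8.95, 14.6 and 14.4 CPM in the anti-BAFF Ab mice. As for Ifit1, control Ab mouse 1 was lowest and control Ab mouse 6 highest. The log2 fold change was -0.19 (-0.80 to 0.41). Usp18 was at 2.61, 7.51, 5.85 and 4.77 CPM in the control Ab mice against 4.24, 3.49, 4.5 and 4.3 CPM, with a log2 fold change of -0.33 (-0.99 to 0.33), which was -0.57 without control Ab mouse 1 and -0.09 without control Ab mouse 2. The treated mice differed little among themselves (SD 0.443 CPM against 2.05 CPM).

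**Figure D3:**
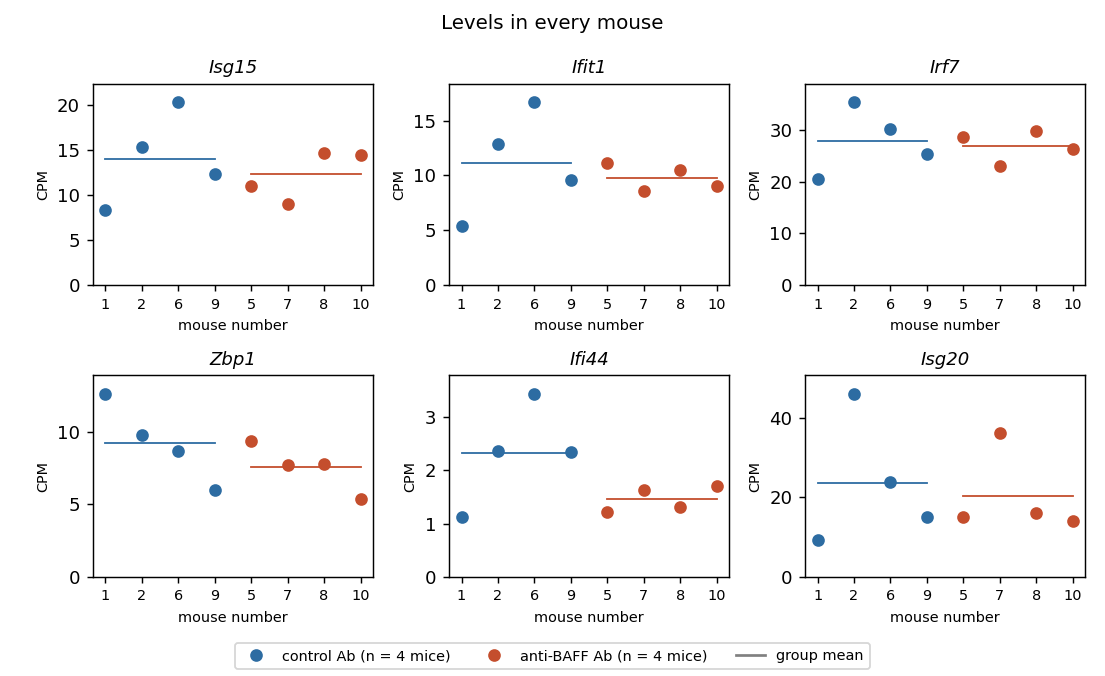
CPM of 6 members in each mouse (points) with the group means (lines), control Ab in blue and anti-BAFF Ab in red, 4 mice each. Isg15, Ifit1 and Irf7 are lowest in control Ab mouse 1, Zbp1 is highest there (12.6 CPM), and Isg20 stands out in mice 2 (46 CPM) and 7 (36.1 CPM).

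Among the sensors, Ifih1 (MDA5) and Ddx58 detect double-stranded RNA, Dhx58 (LGP2) modulates them, Zbp1 binds Z-form nucleic acid and Eif2ak2 (PKR) stops translation. Ifih1 was at 32.6, 33.8, 35.7 and 35.2 CPM in the control Ab mice and at 31.5, 29.7, 39.8 and 35.9 CPM in the anti-BAFF Ab mice. The groups were centred on the same value, with a fold of 0.997 (0.852 to 1.17). Zbp1 was at 12.6, 9.75, 8.63 and 5.95 CPM in the control Ab mice and at 9.36, 7.71, 7.76 and 5.35 CPM in the anti-BAFF Ab mice. Control Ab mouse 1, lowest for Isg15, was highest for Zbp1, and the groups overlapped. The log2 fold change was -0.29 (-0.85 to 0.26). Eif2ak2 was the steadiest member, and its highest mouse was only 1.12 times its lowest, with a log2 fold change of -0.03, and Dhx58 was at -0.13. The transcription factors Irf7, Irf9 and Stat2, through which the response feeds back on itself, had log2 fold changes of -0.05, -0.03 and -0.13.

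Of the other effectors, Bst2 was at 66.4, 60.8, 60.4 and 52.5 CPM in the control Ab mice and at 59.2, 51.8, 62.1 and 52.6 CPM in the anti-BAFF Ab mice. Ifi27, a small mitochondrial protein gene, was at 77.2, 80.4, 72.6 and 74.8 CPM against 74, 69.6, 78.8 and 74.9 CPM. Ifi35 was at 20.4, 20, 19 and 17 CPM against 17.7, 16.4, 17 and 19.7 CPM. These 3 abundant genes were even across the mice, with log2 fold changes of -0.09, -0.04 and -0.11. Rsad2 encodes viperin, which makes a chain-terminating nucleotide, and it had the highest log2 fold change of all, at 0.05 (-0.28 to 0.38). It was at 19.7, 26.7, 24.9 and 20 CPM in the control Ab mice and at 25.4, 18.4, 25.4 and 25.1 CPM in the anti-BAFF Ab mice. Anti-BAFF Ab mice 5, 8 and 10 were nearly equal and mouse 7 lay below them. Xaf1, a pro-apoptotic gene, was at 6.45, 9.04, 12.4 and 8.3 CPM against 8.68, 8.33, 8.87 and 10.1 CPM, a fold of 0.997 (0.739 to 1.34). The log2 fold changes of Cmpk2, a mitochondrial nucleotide kinase gene, and Parp14, an ADP-ribosyltransferase gene, were -0.09 and -0.06, and those of Rtp4 and Trim30a were -0.03 and -0.02.

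Ifi44 showed the greatest difference of the 35. It was at 1.12, 2.36, 3.44 and 2.35 CPM in the control Ab mice and at 1.21, 1.63, 1.31 and 1.71 CPM in the anti-BAFF Ab mice. Control Ab mice 2, 6 and 9 lay above all treated mice, and control Ab mouse 1 lay below all of them. The log2 fold change was -0.65 (-1.40 to 0.09), with an unadjusted p of 0.0798 and an adjusted p of 1.00 in edgeR. Without control Ab mouse 1 it was -0.90, with an unadjusted p of 0.0057 and an adjusted p of 0.337 in edgeR, and without control Ab mouse 6 it was -0.40. In the fit without control Ab mouse 1, Usp18 (-0.57), Ifit2 (-0.28) and Stat2 (-0.23) also had an unadjusted p under 0.05, which makes 4 of 35 members, or 11.4%. The background rose as well: 1708 of 16261 genes, or 10.5%, had an unadjusted p under 0.05 without that mouse, so the members' share was near that of all genes.

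Isg20, an exonuclease gene, varied most among the abundant members. It was at 9.37, 46, 23.8 and 15.1 CPM in the control Ab mice and at 15, 36.1, 16.1 and 14.1 CPM in the anti-BAFF Ab mice. The high mice of the 2 groups, 2 and 7, were also those with the highest scores of epididymis genes, and control Ab mouse 1 had the lowest value of both. The log2 fold change was -0.21 (-1.31 to 0.89). With the epididymis score as a covariate it was -0.40, with an unadjusted p of 0.0238 and an adjusted p of 1 in edgeR. It was the only member under 0.05 in that fit, which makes 2.86% of the members against 2.50% of all genes. The part of the epididymis signal in this gene's level was not tested further.

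Cxcl10 and Ifi47 also respond to interferon gamma. Cxcl10, a chemokine that attracts T cells, was at 19.7, 28.3, 42.2 and 26.1 CPM in the control Ab mice and at 24.7, 22.6, 40.6 and 25.9 CPM in the anti-BAFF Ab mice. Each group had 1 high mouse (6 and 8), and the log2 fold change was -0.03 (-0.60 to 0.54). All of Cxcl10 lies within Art3 on the opposite strand, which was at 13.4 CPM, and Ifi47 lies wholly within Olfr56 on its own strand, at 1.09 CPM. Reads over such shared bases cannot be assigned with certainty, since the counting is not stated to use strand.

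The clearer structure was between mice. Control Ab mice 2 and 6 held the highest value of 14 and 12 of the 35 members, and anti-BAFF Ab mouse 7 and control Ab mouse 1 held the lowest value of 14 and 13. Control Ab mouse 1 was divided: it was the lowest control for 22 members and the highest control for 8. The highest mouse was 1.6 times the lowest for the median member, with a range from 1.12 (Eif2ak2) to 4.96 (Ifit3b). Once group means were removed, each member was set against the mean of the other members over the 8 mice. Pearson's r was above 0.5 for 21 of the 35 members, or 60%, against 17.0% of 15928 other genes set against the member score. The members' median r was 0.63 and that of the other genes 0.01. These r values describe 8 libraries, and all points share each mouse's library, depth and cell make-up.

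**Figure D4:**
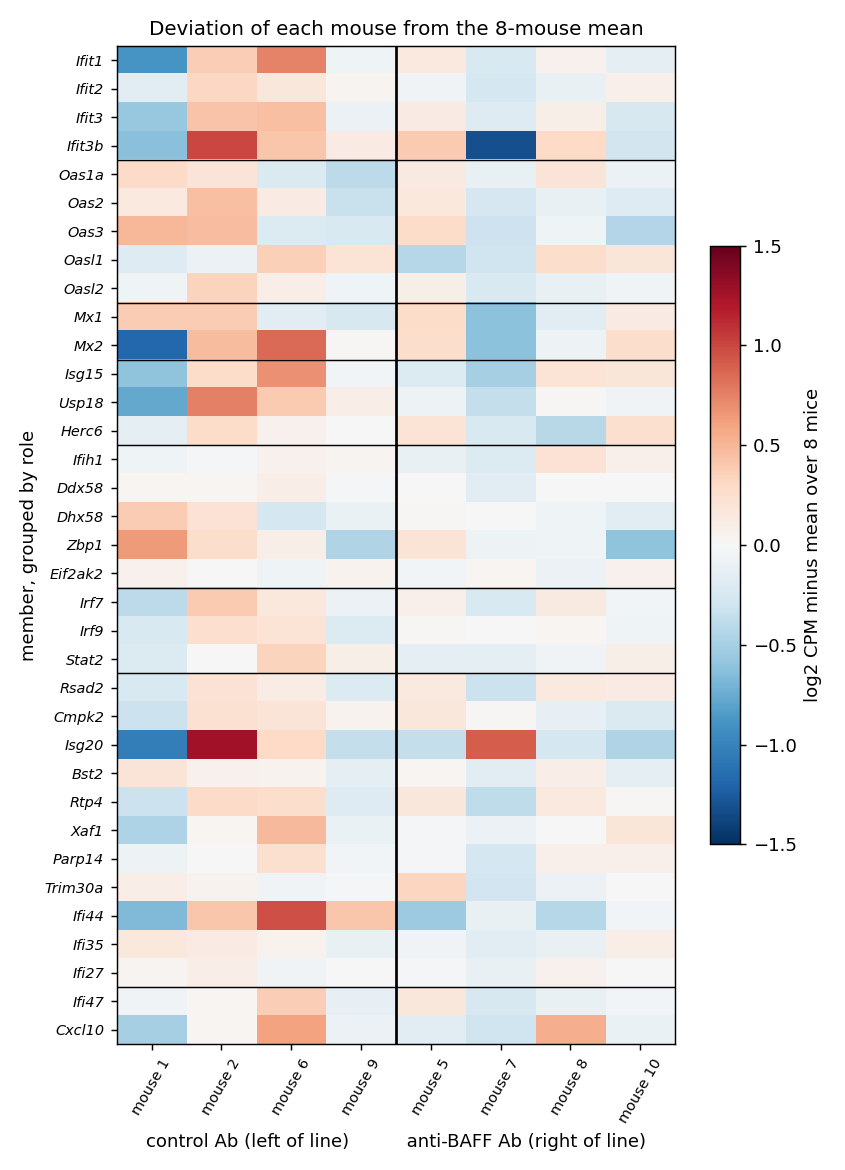
Log2 CPM of each member minus its mean over the 8 mice (red above, blue below), with members in rows grouped by role and mice in columns, control Ab left of the line. Mice 2 and 6 are red over most rows, mouse 7 is mostly blue except at Isg20, and mouse 1 is blue for Ifit1, Mx2 and Isg15 and red for Oas3, Mx1 and Zbp1.

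The members that moved together came from several roles. Rtp4, a chaperone-like transmembrane protein gene, had an r of 0.97, Irf7 of 0.96, Ifit3 of 0.92 and Rsad2 of 0.91. Irf9 (0.89), Usp18 (0.88), Ifit1, Oasl2 and Mx2 (0.87 each), Ifit2 (0.86), Ifit3b (0.85) and Isg15 (0.82) followed. Irf7 was at 20.6, 35.5, 30.2 and 25.5 CPM in the control Ab mice and at 28.7, 23.1, 29.8 and 26.4 CPM in the anti-BAFF Ab mice, with mice 2 and 6 highest and mice 1 and 7 lowest, as in the score. Eif2ak2 (-0.65), Dhx58 (-0.38) and Zbp1 (-0.08) had an r below 0, and Oas3 (0.03), Oas1a (0.05), Bst2 (0.18) and Ifi35 (0.20) were near 0. Without control Ab mouse 1, Bst2 (0.84), Oas1a (0.78), Mx1 (0.71), Ifi35 (0.69), Oas3 (0.57), Zbp1 (0.57), Ifi27 (0.54) and Trim30a (0.50, just above the line) joined the others. In that setting 24 members were above 0.5, against 12.6% of other genes. Of these 24 members, 16 were also above 0.5 with all mice, while Stat2 (0.16), Cmpk2 (0.34), Cxcl10 (0.44), Xaf1 (0.47) and Ifi44 (-0.09) fell under it. The ISRE letters did not divide these sets: they were in 8 of the 16 members with a window and an r above 0.5 and in 6 of the 10 others, with Ifi44 (r = 0.50) just above the line.

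The genes outside the set whose pattern over the 8 mice was most like the member score were Gm48488 (r = 0.98), Myo10 and 1700102P08Rik (0.97 each), Fzd2 (0.96), and Thsd1 and Slc25a30 (0.95 each). Gm12473, Ttc38, Igkv4-59 and Zfp324 followed at 0.94. They were the top 10 of 15928 genes over 8 points, and none is on the interferon lists used here.

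Upstream of the members, hardly any interferon transcript was counted. Of 21 ligand genes 15 had no count in any mouse and none passed the filter. A count of 0 allows up to 3 counts, or 0.162 to 0.221 CPM, for counting error only. Ifnb1, the beta interferon gene, had 2, 2, 4 and 8 counts in the control Ab mice and 4, 2, 6 and 6 in the anti-BAFF Ab mice. Ifng, the gamma interferon gene of T and NK cells, had 6, 9, 1 and 5 counts against 13, 5, 6 and 2. Ifna13, Ifnab, Ifne and Ifnk had 1, 3, 4 and 1 counts over all mice. At these counts no difference between the groups was detectable.

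The receptor and signalling genes were well expressed. All 10 were tested, with 0 called in either direction and a median log2 fold change of 0.06, from Ifnlr1 (-0.37) to Jak1 (0.11) and Jak2 (0.17). The 15 genes of sensing and induction also had a median of 0.06 and no call. They ran from Tmem173 (STING) and Mavs, both at -0.04, to Mb21d1 (cGAS) at 0.18 and the kinase gene Ikbke at 0.20. Of 13 negative regulators 12 were tested, with no call and a median of -0.02 (-0.09 to 0.04 with 1 mouse left out). Socs1, an inhibitor of JAK kinases, was lowest at -0.41 (-1.01 to 0.19), followed by Socs3 at -0.10, and Ptpn2 (0.16) and Rnaseh2b (0.21) were highest.

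Targets outside the set were counted in the same way. Of 27 interferon gamma targets 26 were tested and none was called. Of the 26, 24 (92.3%) had a log2 fold change below 0, against 48.5% of all genes tested, and the median was -0.10. That median was -0.03 without control Ab mouse 6 and -0.19 without control Ab mouse 1. Ido1, which degrades tryptophan, was lowest at -0.50 with a very wide interval of -3.68 to 2.67, and Gbp4 was at -0.34. Ido1 was high in control Ab mouse 2 (25.4 CPM) and anti-BAFF Ab mouse 7 (15.1 CPM), the mice with the highest epididymis scores. It was at 0.186 to 3.03 CPM in the others. The part of the epididymis signal in Ido1 was not tested. Tap2 (0.02) and Nos2 (0.27) were highest. Of 59 other type I interferon targets 57 were tested and none was called. Of the 57, 34 (59.6%) were below 0, against the same 48.5%, and the median was -0.02. Oas1g and Ifi213 (-0.35 each) were lowest, and Oas1c (0.35) and Ifitm1 (0.39) were highest.

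**Figure D5:**
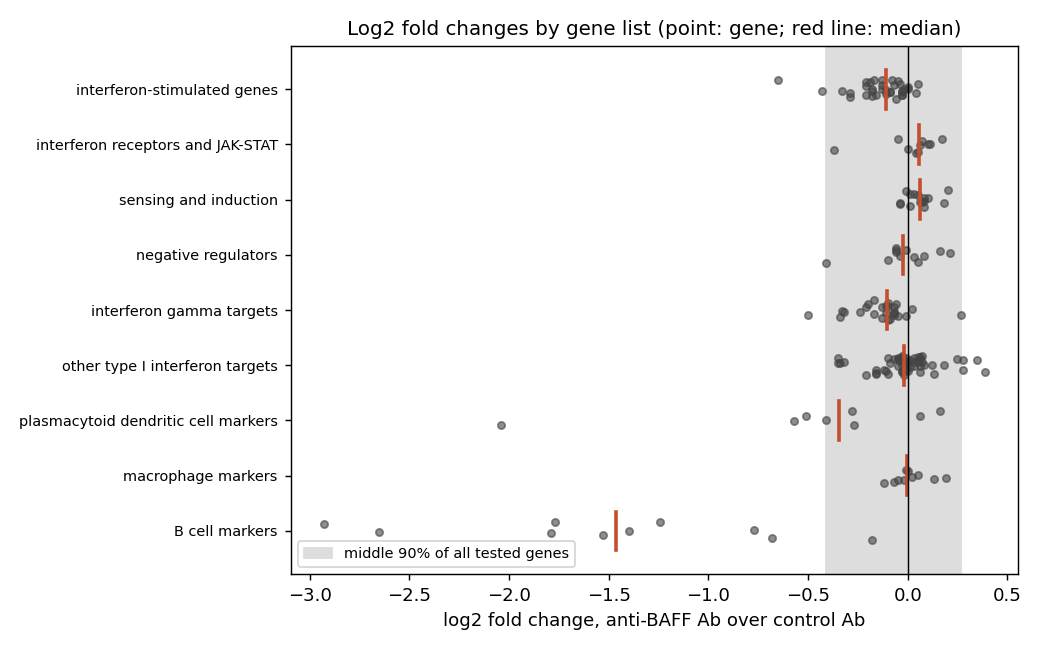
Log2 fold change of anti-BAFF Ab over control Ab for each tested gene (point) of the ISGs, the other interferon lists and 3 sets of cell markers, with list medians as red lines and the middle 90% of all tested genes (-0.41 to 0.27) in grey. The ISG median is -0.11 and the B cell marker median -1.47.

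Plasmacytoid dendritic cells are the classical source of alpha interferon, so their markers are given beside these values. Of 10 markers 8 were tested, and 6 (75%) were below 0, against 48.5% of all genes tested. The marker score was 1.68 to 2.27 in the control Ab mice and 1.37 to 1.97 in the anti-BAFF Ab mice. The defining marker Siglech was low but present in every mouse (2.98 to 7.57 CPM), with a log2 fold change of -0.51 (-1.11 to 0.10). Cox6a2 (0.16) and Lair1 (0.06) were above 0. Ly6d, which B-lineage cells also express, had -2.04 with an unadjusted p of 0.0116 and an adjusted p of 1.00 in edgeR. The macrophage marker score was 8.43 ± 0.17 in the control Ab mice and 8.45 ± 0.17 in the anti-BAFF Ab mice (SD, n = 4 each), a difference within the spread. The score of the 6 tested neutrophil markers, of 9 listed, was high in anti-BAFF Ab mouse 5 alone (4.55, against 1.59 to 2.56 in the others). Not every marker followed it. Retnlg was highest in control Ab mouse 1 (3.1 CPM, against 1.28 CPM in mouse 5). Ngp, which was not tested, was also highest there (1.74 CPM, against 0 in mouse 5). The part of any of these cells in the ISG levels was not tested.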

How the data were processed

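Bulk RNA sequencing of the SVF of gonadal WAT was analysed for 8 mice, 4 per group, grouped by the treatment in their labels. The authors had paired-end libraries sequenced on a NovaSeq instrument and deposited raw counts per gene, mapped to mm10 per the labels. The aligner and counting tool are not given in the sources used here. The gene length column, an other value in bases deposited by the authors, served to compute FPKM. Within each group no library was a repeat of another: chi-square values of library pairs, divided by their degrees of freedom, were at least 7.32. Pairs between the groups were not compared. Labels give no batch.

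The main test was that of edgeR 4.0.16, run under R 4.3.3 (genes kept by filterByExpr at a minimum count of 10, TMM, quasi-likelihood without the robust option, treatment as the only term), with Benjamini-Hochberg adjustment over 15963 genes. Intervals are 95% intervals of the log2 fold change. Log2 CPM used a prior count of 2. DESeq2 1.42.0 and limma 3.58.1 on log2(FPKM + 1) were alternatives. The fits were tested on simulated data. P-values measure only the spread between these mice.

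The members and lists were chosen with earlier results of these data known. Values in every mouse are given for the 6 members with the highest FPKM and the 4 highest and 4 lowest log2 fold changes. Ifit1 and Irf7 were added after their values were seen. Of each pathway list the 2 highest and 2 lowest genes are named, except 1 gene that is not reported here. Correlations used log2 CPM minus the group mean.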

Additional observations from a re-analysis of the deposited data

Results flagged for a closer look

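Within the groups of 4 mice, 3 of 98 sets of log2 CPM values (the members and the mean scores in each group) had 1 mouse far from the others, where about 4.9 would arise by chance. All 3 were in anti-BAFF Ab mouse 7. Ddx58 was lowest there at 5.00, against 5.16 to 5.17 in the other anti-BAFF Ab mice. Rsad2 was lowest there at 4.21, against 4.66 to 4.68. Isg20 was highest there at 5.18, against 3.83 to 4.02, in the mouse with the highest score of epididymis genes, whose part was not tested.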

How the results depend on the processing

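No member was called at an adjusted p of 0.05 under any of the alternatives run. Over all genes, the 9 calls became 67 with DESeq2, 2 with the robust option, 19 with no filter, 0 without immunoglobulin genes, 3 without the mouse of each group with the highest epididymis score, and 2 to 9 with 1 mouse left out. Members with an unadjusted p under 0.05 numbered 1 with the epididymis score as a covariate and 0 to 4 with 1 mouse left out, the 4 without control Ab mouse 1. The members' median log2 fold change was -0.17 to -0.04, their number below 0 24 to 34, and the score difference -0.20 to -0.04 with 1 mouse left out. Of 385 member values under the other alternatives 371 kept their direction and 14 reversed, in 12 members. Without the mice with the highest epididymis score the log2 fold changes were 0.12 for Ifit3b, 0.05 for Mx1, 0.02 for Mx2, 0.04 for Herc6, 0.03 for Ifih1, 0.14 for Irf7, 0.04 for Irf9, 0.16 for Rtp4, 0.01 for Xaf1, 0.06 for Trim30a, 0.00 for Ifi27 and 0.03 for Cxcl10, and 21 members were below 0. Ifih1 was at 0.01 with the covariate and Xaf1 at 0.00 with limma. With 1 mouse left out, 33 of 280 values in 16 members reversed. The ranges were -0.43 to 0.08 for Ifit1, -0.07 to 0.14 for Oas1a, -0.50 to 0.08 for Mx2, -0.40 to 0.03 for Isg15, -0.18 to 0.02 for Herc6, -0.10 to 0.04 for Ifih1, -0.19 to 0.09 for Irf7, -0.12 to 0.06 for Irf9, -0.03 to 0.14 for Rsad2, -0.66 to 0.34 for Isg20, -0.15 to 0.07 for Rtp4, -0.15 to 0.18 for Xaf1, -0.12 to 0.01 for Parp14, -0.16 to 0.05 for Trim30a, -0.21 to 0.00 for Ifi47 and -0.26 to 0.20 for Cxcl10. The medians of the other interferon lists ranged from 0.01 to 0.06 (receptors and JAK-STAT), 0.01 to 0.09 (sensing), -0.09 to 0.04 (negative regulators), -0.19 to -0.03 (interferon gamma targets) and -0.05 to 0.00 (other type I targets). The cause was not tested. The number of members with an r above 0.5 was 24 without control Ab mouse 1 and 21 without the mice with the highest epididymis score (10 members then below 0, and 25.9% of other genes above 0.5), alternatives chosen after seeing the data. No paired analysis was possible because the mouse numbers differ between the groups. At the depth reached, the ligand genes were too low to be tested.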
